A study of Mus musculus with 10 samples.

Results

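Bile acid synthesis and transport were followed through 10 genes in liver, out of 22180 genes that the arrays measured: Cyp7a1, Cyp8b1, Cyp27a1 and Cyp7b1, which make bile acids from cholesterol, Slc27a5 and Baat, which conjugate them, Slc10a1 and Abcb11, which carry them across the hepatocyte, and Nr1h4 and Nr0b2, which regulate the pathway. A gene was represented by the transcript cluster, a group of probes for 1 transcript region, that carried its symbol alone and had the highest mean. Each of the 10 genes had 1 such cluster, and all 10 were above the level filter of the tests, which kept 13308 genes. The genes were grouped by function, with earlier results of these arrays known.

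The RNA came from livers of male mice aged 4 weeks, 25 mg of tissue per sample, on 1 Affymetrix array each. Every animal carried Rosa26-rtTA, a transactivator expressed from the Rosa26 locus that turns on a linked construct in the presence of doxycycline. The 4 controls had rtTA alone, 3 livers had rtTA with SOD2 shRNA 1 and 3 had rtTA with SOD2 shRNA 2, hairpins against Sod2, the mitochondrial superoxide dismutase. Dams ate doxycycline chow (625 mg/kg), which limited the knockdown to embryonic day 0 to 12.5, and the livers were taken weeks later. The 6 shRNA livers are called adapted, the labels' word. As littermates, 3 controls came from the cohort of shRNA 2 and 1 from that of shRNA 1, in unstated order, so hairpin and cohort cannot be told apart. The numbered samples are not stated to be separate animals, and p-values then measure only the spread between these samples, which may be technical. The sources used here do not give the time of day or feeding state at collection.

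Bile acids are made in the hepatocyte along a classic route that starts with Cyp7a1 and an alternative route that starts with Cyp27a1 and continues through Cyp7b1. Bile acids that return from the intestine activate the receptor FXR, which Nr1h4 encodes. FXR raises the repressor SHP, the product of Nr0b2, and the export pump of Abcb11, and both SHP and the intestinal hormone FGF15 lower Cyp7a1. The pathway is known in mouse liver for its daily rhythm and its dependence on feeding, and Cyp7b1 is known to be higher in males under the male pattern of growth hormone.

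Values are log2 expression, as the submitters deposited them, so a difference of 1 is a doubling, and the level of a gene is compared only with the same gene on other arrays. Sod2 itself lay between 10.24 and 10.49 on all arrays, with a difference of -0.01 between adapted and control livers (limma adjusted p = 0.98). The mean of the hepatocyte marker list stood at 13.00 to 13.13, and that of the cholangiocyte and gallbladder list at 3.76 to 4.11, beside a filter level of 3.98. Pericentral markers had means of 9.55 to 9.75 on 8 arrays and of 9.26 in control 1 and 9.32 in shRNA 2 replicate 3, and periportal means, at 9.84 to 10.39, were highest on those arrays. Of the 12 cell type marker lists, 0 genes passed the adjusted test between adapted and control livers (limma). The macrophage marker Vsig4 was higher by 0.24 in adapted livers, above all controls in 6 of 6 (limma adjusted p = 0.464). Of 7 macrophage markers tested, 5 were higher and 2 lower. The cholangiocyte marker Sox9 differed by -0.46, below all controls in 6 of 6 (limma adjusted p = 0.303). It was 1 of 4 genes tested of its list, and the others did not follow it: Krt7 differed by 0.13, Muc1 by -0.10 and Epcam by -0.02. Groups without overlap, as in Vsig4 and Sox9, occurred in 1.88% of all genes tested. The part of these cell types in the differences of the 10 genes was not tested. The arrays fell into separate sets by a clock index, the mean of 7 clock genes that peak by day minus that of 5 that peak by night: control 1, shRNA 1 replicate 1, and shRNA 2 replicates 1 and 3 stood at 0.73 to 1.66, and the other 6 arrays at -0.64 to 0.00. The library of shRNA 2 replicate 3 also had the lowest mean of 16 male-biased liver genes, 8.24, against 8.90 to 9.83 on the other arrays. In whole liver, fewer cells of a type and less RNA per cell cannot be told apart.

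For 6 of the 10 genes, 7 promoter windows were found in the RefSeq table of mouse assembly GRCm38.p6, each running from 250 bases before to 50 bases after an annotated start. The windows of 3 genes are printed, 5′ to 3′ on the gene's strand: Nr0b2 and Cyp8b1, which varied most between arrays among the genes with a window, and Slc10a1, the gene whose adapted and control arrays did not overlap. Capitals mark matches, on either strand, to CACGTG, the E-box that clock proteins bind, TTCNNNGAA, the core that STAT5 binds downstream of growth hormone, and TATAAA, the TATA box.
Nr0b2 (chr4:133553126-133553425, plus strand): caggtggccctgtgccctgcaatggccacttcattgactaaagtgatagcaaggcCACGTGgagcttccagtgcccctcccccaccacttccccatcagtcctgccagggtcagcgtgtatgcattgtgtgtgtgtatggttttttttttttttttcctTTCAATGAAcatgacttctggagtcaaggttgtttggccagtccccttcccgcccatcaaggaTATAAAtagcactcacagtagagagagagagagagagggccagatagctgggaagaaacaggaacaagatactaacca
Cyp8b1 (chr9:121916256-121916555, minus strand): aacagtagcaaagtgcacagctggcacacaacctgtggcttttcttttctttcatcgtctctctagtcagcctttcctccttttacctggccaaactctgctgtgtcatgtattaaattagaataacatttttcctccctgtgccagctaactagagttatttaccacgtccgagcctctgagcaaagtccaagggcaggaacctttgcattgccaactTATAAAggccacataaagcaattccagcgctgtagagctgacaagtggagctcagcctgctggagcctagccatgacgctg
Slc10a1 (chr12:80968656-80968955, minus strand): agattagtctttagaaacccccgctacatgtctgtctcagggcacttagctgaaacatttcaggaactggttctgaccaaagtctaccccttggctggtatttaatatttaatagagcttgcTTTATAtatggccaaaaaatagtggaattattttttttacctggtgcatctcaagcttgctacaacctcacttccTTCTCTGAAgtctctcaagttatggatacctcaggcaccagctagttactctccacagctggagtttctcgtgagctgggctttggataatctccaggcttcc

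The Nr0b2 window held the E-box at -195, a TTCNNNGAA match at -91 and a TATA box at -28 from the start. The Cyp8b1 window held a TATA box at -31. In the Slc10a1 window, TTCNNNGAA matched at -53, and TATAAA on the reverse strand at -128. Among all 32544 promoter windows of that table, 7.17% held CACGTG, 8.33% held TTCNNNGAA and 13.6% held TATAAA. The core motif of nuclear receptors, AGGTCA, was in the windows of Abcb11 at -56 and Nr1h4 at -214 and in a second window of Slc10a1 at -87, and in 16.2% of all windows. The IR1 element that FXR binds, an inverted repeat of that core with 1 base between, the site CAAGGTCA of LRH-1, which also contains the core, and the D-box TTATGTAA were in none of the 7 windows and in 0.00922%, 1.53% and 0.931% of all. A match is a string of letters, not a measured binding site. Only exact matches were searched, and the exact IR1 string was rare among all windows, at 0.00922%. Its absence from the 7 windows therefore does not show that they lack an FXR site. In the Abcb11 window, the core at -56 is preceded, with 1 base between, by an inverted copy that differs at 1 base. Such imperfect elements were not searched for, and FXR binding was not tested.

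The question put to these genes was whether bile acid synthesis and transport differed in livers that had gone through the embryonic knockdown. None of the 10 genes passed the test between adapted and control livers, where 0.00751% of all genes did, 1 gene of 13308 (limma, Benjamini-Hochberg adjusted p under 0.05). Of the 10, 5 means were higher and 5 lower in adapted livers, with a median difference of -0.00432 on the log2 scale beside 0.00582 over all genes, and adjusted p ranged from 0.608 to 0.988. At an unadjusted p under 0.05, 0 of the 10 and 8.37% of all genes passed. The 95% confidence interval of the difference lay within a doubling or halving in 8 of 10 genes and within 0.5 on the log2 scale in 6. Cyp7a1 and Cyp7b1 were the genes whose intervals reached beyond a doubling or halving. The data therefore do not tell a doubling of Cyp7a1, or a halving of Cyp7b1, from no difference.

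**Figure D1:**
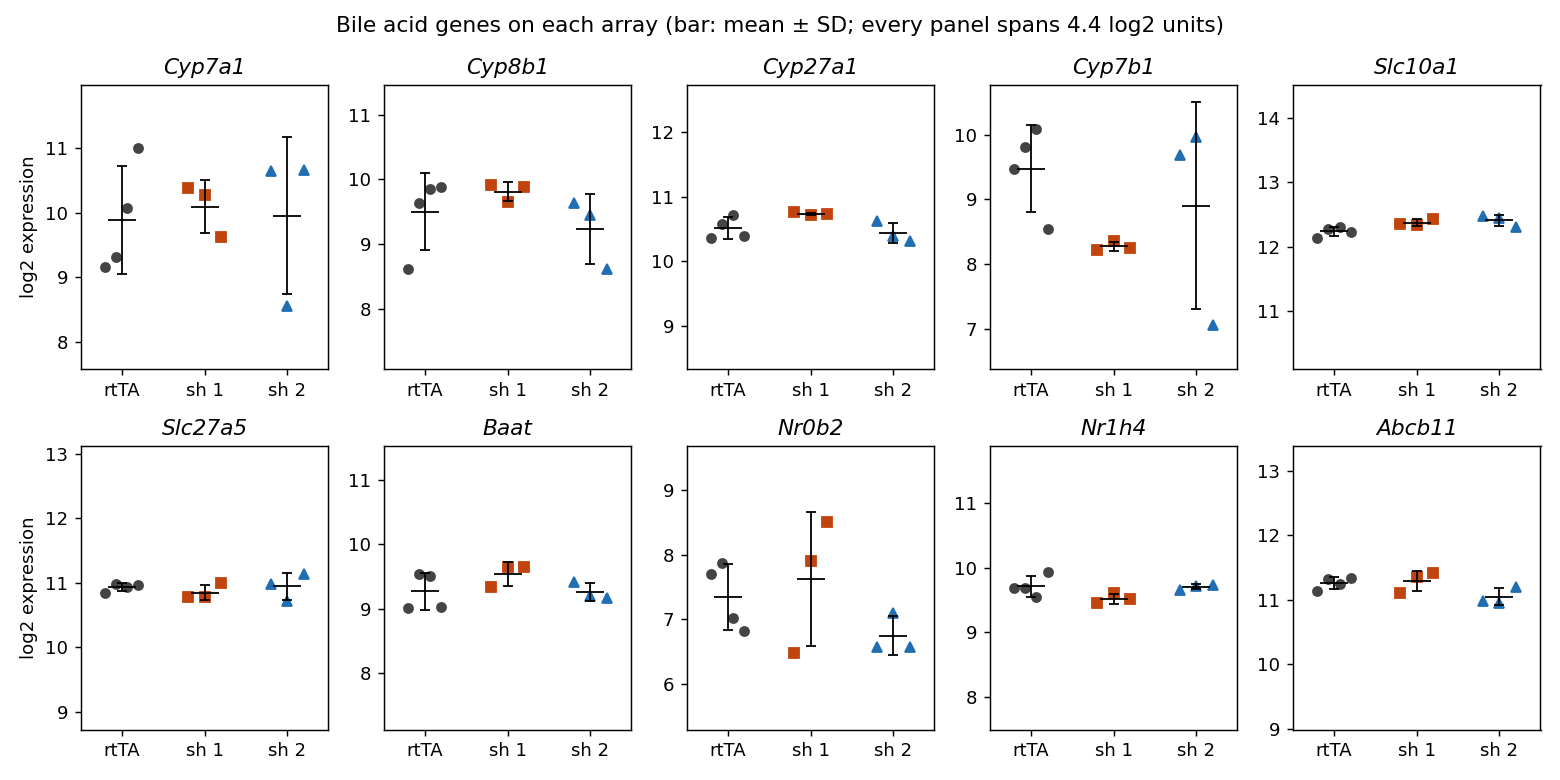
Log2 expression of the 10 genes on every array, with dark circles for the 4 rtTA controls, orange squares for shRNA 1 (sh 1) and blue triangles for shRNA 2 (sh 2), 3 arrays each; bars give mean ± SD, and each panel spans 4.4 log2 units. Cyp7a1, Cyp8b1, Cyp7b1 and Nr0b2 scatter by 1.29 to 3.03 within the set of arrays, whereas Slc10a1, Slc27a5, Nr1h4 and Abcb11 lie close together.

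Cyp7a1, the rate-limiting enzyme of the classic route, varied 5.39-fold over the 10 livers and did so within groups. Its log2 level was 9.16, 9.32, 10.07 and 11.00 in controls 1 to 4, 10.38, 10.27 and 9.62 in shRNA 1 livers, and 10.65, 8.56 and 10.66 in shRNA 2 livers. The highest array was a control and the lowest an shRNA 2 liver, and the groups overlapped. The means were 9.89 ± 0.84 (SD, n = 4), 10.09 ± 0.41 (n = 3) and 9.96 ± 1.21 (n = 3), which gave adapted minus control 0.14 with a standard error of 0.44 and a 95% interval from -0.83 to 1.10 (limma adjusted p = 0.964, exact permutation p = 0.81). Leaving out control 1 turned the sign to -0.11, and leaving out control 4 gave 0.50. Fgf15, the intestinal hormone gene, was near the filter level on all arrays, at 3.93 to 4.58.

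Cyp8b1 is the sterol hydroxylase that sets the share of cholic acid. It stood at 8.62, 9.63, 9.86 and 9.88 in controls, at 9.91, 9.65 and 9.88 in shRNA 1 livers, and at 9.63, 9.45 and 8.62 in shRNA 2 livers. Control 1 and shRNA 2 replicate 3 were lowest, with the next array at 9.45, and both belong to the arrays with a high clock index. Of the other arrays with a high index, shRNA 1 replicate 1 was the highest of all arrays, at 9.91. The other, shRNA 2 replicate 1, was at 9.63. Control 1 and shRNA 2 replicate 3 were also the arrays with the lowest pericentral means, 9.26 and 9.32, and the highest periportal means, 10.39 and 10.34. The part of clock phase and of zonal markers in these low values was not tested. Adapted and control means differed by 0.03 (standard error 0.25, interval -0.53 to 0.58, limma adjusted p = 0.988), and by -0.27 without control 1.

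Cyp27a1, the mitochondrial sterol hydroxylase that opens the alternative route, was at 10.37, 10.58, 10.72 and 10.39 in controls, 10.76, 10.72 and 10.73 in shRNA 1 livers and 10.62, 10.40 and 10.31 in shRNA 2 livers. The shRNA 1 livers were nearly identical and above all shRNA 2 livers, and control 3 was level with them. The difference between adapted and control livers was 0.07 (standard error 0.09, interval -0.13 to 0.27, limma adjusted p = 0.886), and 0.02 without control 1 or 0.14 without control 3.

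Cyp7b1, the oxysterol hydroxylase of the alternative route, had the widest range, 8.18-fold. Its level was 9.48, 9.81, 10.09 and 8.54 in controls, 8.22, 8.35 and 8.25 in shRNA 1 livers, and 9.69, 9.97 and 7.06 in shRNA 2 livers. All 3 shRNA 1 livers and shRNA 2 replicate 3 were below every control, while shRNA 2 replicates 1 and 2 were within the control range. The adapted mean differed from control by -0.89 (standard error 0.49, interval -1.95 to 0.17), which did not pass the test (limma adjusted p = 0.653, exact permutation p = 0.171). For shRNA 1 the difference was -1.21 (interval -2.46 to 0.05, adjusted p = 0.657), and the exact permutation p of 0.0571 is the smallest that 3 against 4 samples can give. For shRNA 2 it was -0.57 (limma adjusted p = 0.860), and 0.35 without replicate 3, so that 1 library sets its sign. Without that library the adapted difference was -0.43, and without control 4 it was -1.21.

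The levels of male-biased genes were set beside those of Cyp7b1. The mean over 16 listed genes, none of them among the 10, was 9.55, 9.69, 9.83 and 9.21 in controls, 8.90, 9.04 and 9.04 in shRNA 1 livers, and 9.56, 9.35 and 8.24 in shRNA 2 livers. All 16 had lower means in adapted livers, 9 at an unadjusted p under 0.05 (3.51% of all genes were lower at that p), and 0 of 16 passed the adjusted test (limma, lowest adjusted p = 0.17). The urinary protein gene Mup21 had the smallest p of the list, with a difference of -1.26 and all 6 adapted livers below every control. Over all genes tested, 1.88% had groups without overlap. The list was chosen with earlier results of these arrays known, so its direction is not independent evidence. As the arrays fall into separate sets by Cyp7b1, no pooled correlation is given. On deviations from the group means, Cyp7b1 and the list mean had r = 0.97 (exact permutation p = 0.0197 within groups, 0.288 adjusted over 20 relations) and rho = 0.98 (p = 0.00347, adjusted 0.0694), with r = 0.96 without the 2 farthest arrays. The relation did not pass the adjusted threshold, and the part of the male-biased genes in the Cyp7b1 difference was not tested.

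Conjugation enzymes differed little. Slc27a5, the bile acid CoA ligase, was at 10.84, 10.98, 10.94 and 10.96 in controls, 10.78, 10.78 and 10.99 in shRNA 1 livers and 10.98, 10.72 and 11.13 in shRNA 2 livers. These arrays overlapped throughout, and the adapted difference was -0.03 (standard error 0.09, interval -0.24 to 0.17, limma adjusted p = 0.956), or -0.08 without shRNA 2 replicate 3 and 0.02 without shRNA 2 replicate 2. Baat, which joins the activated bile acid to taurine or glycine, was at 9.01, 9.53, 9.51 and 9.02 in controls, 9.33, 9.64 and 9.64 in shRNA 1 livers and 9.42, 9.19 and 9.17 in shRNA 2 livers. The controls split into a lower and a higher pair that spanned most of the adapted values, and the difference was 0.13 (standard error 0.13, interval -0.15 to 0.41, limma adjusted p = 0.836), or 0.04 without control 1 and 0.21 without control 2.

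Slc10a1 encodes NTCP, the sodium-dependent carrier that takes bile acids up from the blood. It was the only one of the 10 genes whose adapted livers all lay on one side of the controls: 12.14, 12.27, 12.31 and 12.23 in controls, 12.35, 12.34 and 12.43 in shRNA 1 livers, and 12.47, 12.45 and 12.31 in shRNA 2 livers. The highest control and the lowest adapted liver were the same to 2 decimals. Groups without overlap occurred in 1.88% of all genes tested. The difference was 0.15, a 1.11-fold ratio, with an interval from -0.004 to 0.31. The exact permutation p of 0.00952 is the smallest that 6 against 4 samples can give, while limma gave 0.0552 unadjusted and 0.608 adjusted, so Slc10a1 did not pass the test. Leaving out each array in turn kept the difference between 0.12 and 0.18. Slc10a1 also had the smallest spread of the 10, with a residual SD of 0.07, at percentile 4.19 among all genes tested.

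Abcb11, the bile salt export pump of the canalicular membrane, was at 11.14, 11.32, 11.25 and 11.34 in controls, 11.11, 11.35 and 11.42 in shRNA 1 livers, and 10.99, 10.96 and 11.20 in shRNA 2 livers. The lowest values were shRNA 2 replicates 1 and 2, and shRNA 1 overlapped with control. The adapted difference was -0.09 (standard error 0.09, interval -0.29 to 0.10, limma adjusted p = 0.830; -0.05 without shRNA 1 replicate 1), from 0.03 for shRNA 1 and -0.21 for shRNA 2 (interval -0.44 to 0.02, adjusted p = 0.687).

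Among the regulators, Nr1h4 was at 9.69, 9.69, 9.54 and 9.93 in controls, 9.45, 9.60 and 9.51 in shRNA 1 livers, and 9.66, 9.72 and 9.73 in shRNA 2 livers. The adapted difference was -0.10 (standard error 0.09, interval -0.29 to 0.08, limma adjusted p = 0.795), and most of it came from shRNA 1, at -0.20 beside -0.01 for shRNA 2. It was -0.16 without control 3 and -0.03 without control 4. Nr0b2, the repressor that FXR induces, was at 7.70, 7.87, 7.02 and 6.82 in controls, 6.48, 7.90 and 8.50 in shRNA 1 livers, and 6.57, 7.09 and 6.57 in shRNA 2 livers. It varied 4.06-fold, and shRNA 1 livers held both the highest and the lowest array. The adapted difference was -0.17 (standard error 0.34, interval -0.91 to 0.57, limma adjusted p = 0.931), and its sign turned to 0.12 without shRNA 1 replicate 1.

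**Figure D2:**
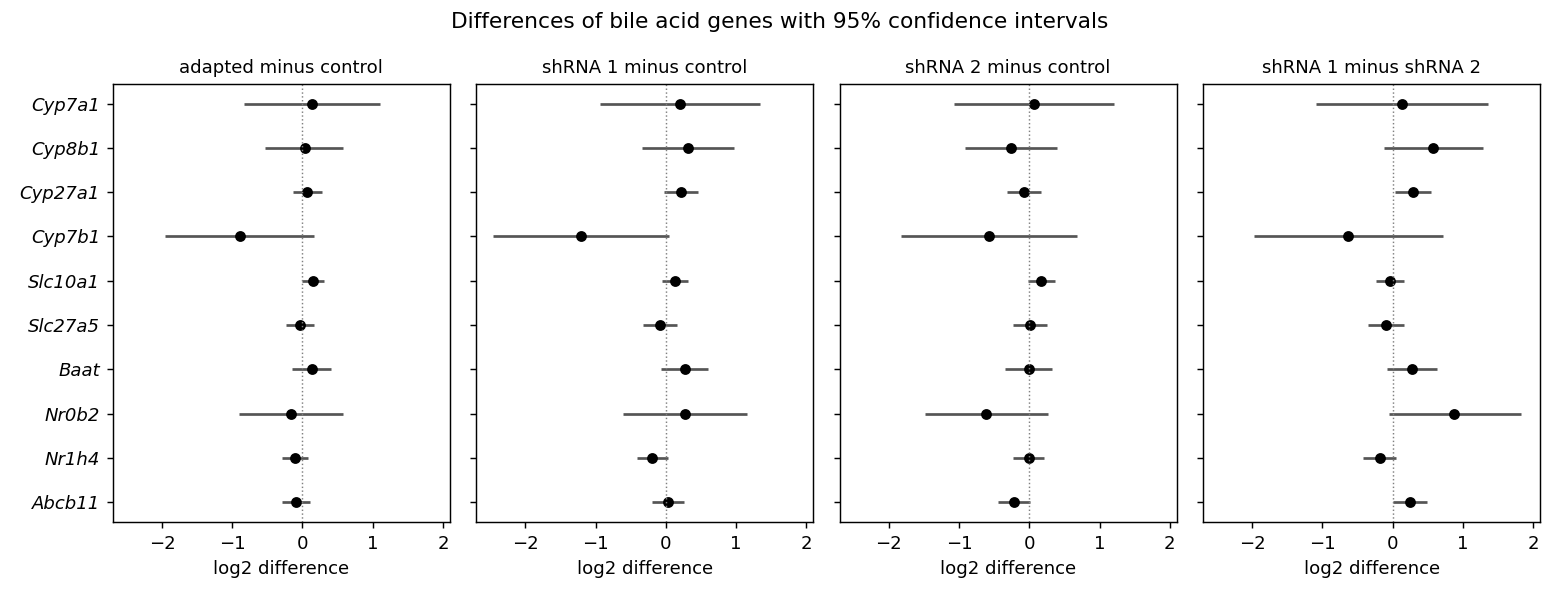
Log2 differences of the 10 genes with 95% confidence intervals from 1 limma fit over 10 arrays, in 4 panels for adapted minus control, shRNA 1 minus control, shRNA 2 minus control and shRNA 1 minus shRNA 2; the dotted line is 0. Cyp7b1 has the lowest estimate in the first panel, -0.89, and the intervals of Cyp27a1 and Abcb11 in the last panel begin at 0.03 and 0.001.

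The 3 comparisons with control share the same 4 controls, so each is given by its own values. In shRNA 1 livers, 0 of the 10 genes passed the test, as 0 of all 13308 genes did (0%), with 7 higher, 3 lower and adjusted p from 0.657 to 0.973 (limma). At an unadjusted p under 0.05, 0 of the 10 and 1050 of all genes, 7.89%, passed. Cyp7b1, lower, and Slc10a1, higher, were without overlap, 2 of 10 genes beside 8.9% of all. In shRNA 2 livers, 0 of the 10 passed beside 0.00751% of all (0 and 7.6% at an unadjusted p under 0.05), 3 were higher and 7 lower, and Slc10a1 alone was without overlap, beside 7.29% of all genes.

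The hairpin groups were compared directly, since a difference between them is also the difference of their effects against the shared controls. None of the 10 genes passed the test, where 0.015% of all genes did, and limma adjusted p ranged from 0.784 to 0.990. At an unadjusted p under 0.05, 2 of 10 genes passed beside 6.02% of all: Cyp27a1, higher in shRNA 1 by 0.29 (interval 0.03 to 0.55, adjusted p = 0.784), and Abcb11, higher by 0.25 (interval 0.001 to 0.49, adjusted p = 0.826). Cyp27a1 and Cyp8b1, higher in shRNA 1, and Nr1h4, lower, had no overlap between the groups, 3 of 10 beside 11.3% of all genes, and 3 against 3 samples cannot give an exact permutation p below 0.1. Nr0b2 was higher in shRNA 1 by 0.88 (interval -0.05 to 1.82, limma adjusted p = 0.849), with 0.45 to 1.46 over the fits that leave out 1 array. The clock index was 0.73, -0.61 and -0.64 in shRNA 1 and 1.24, 0.00 and 1.66 in shRNA 2 livers. Cyp8b1 differed between the hairpin groups by 0.58, or by 0.14 with the index as a covariate. On deviations from the group means, Cyp8b1 and the index had r = -0.63 (exact permutation p = 0.0891 within groups, adjusted 0.288) and rho = -0.28. Without the 2 farthest arrays r was 0.05, so the relation behind that covariate value rests on few arrays.

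The spread of the genes within groups set them apart from each other. The residual SD was 0.97 for Cyp7b1, 0.87 for Cyp7a1, 0.67 for Nr0b2 and 0.49 for Cyp8b1, at percentiles 99.9, 99.8, 99.6 and 98.9 among the genes tested. Baat was at 0.22, and Cyp27a1, Slc27a5, Abcb11, Nr1h4 and Slc10a1 were at 0.07 to 0.14, below the median gene at 0.16. The hydroxylases and the repressor with the highest spread are therefore those in which 10 arrays resolve least.

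Whether the genes varied together between livers was examined over 45 pairs. Arrays fell into separate sets by Cyp27a1, Cyp7b1 and Nr0b2, which left 21 pairs with a pooled correlation, and none passed the adjusted threshold (lowest permutation p 0.0338 for Baat and Nr1h4, r = -0.66 and rho = -0.58, adjusted 0.38; r = -0.47 without the 2 farthest arrays). On deviations from group means, 36 pairs could be given and none passed. The smallest p was that of Cyp7a1 and Nr0b2, with r = -0.64 (exact permutation p = 0.00347 within groups, adjusted 0.156), rho = -0.76 (p = 0.00463, adjusted 0.208) and r = -0.64 without the 2 farthest arrays. The lowest Cyp7a1, in shRNA 2 replicate 2, was accompanied by the highest Nr0b2 of that group, and the highest Cyp7a1, in control 4, by the lowest Nr0b2 of the controls.

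**Figure D3:**
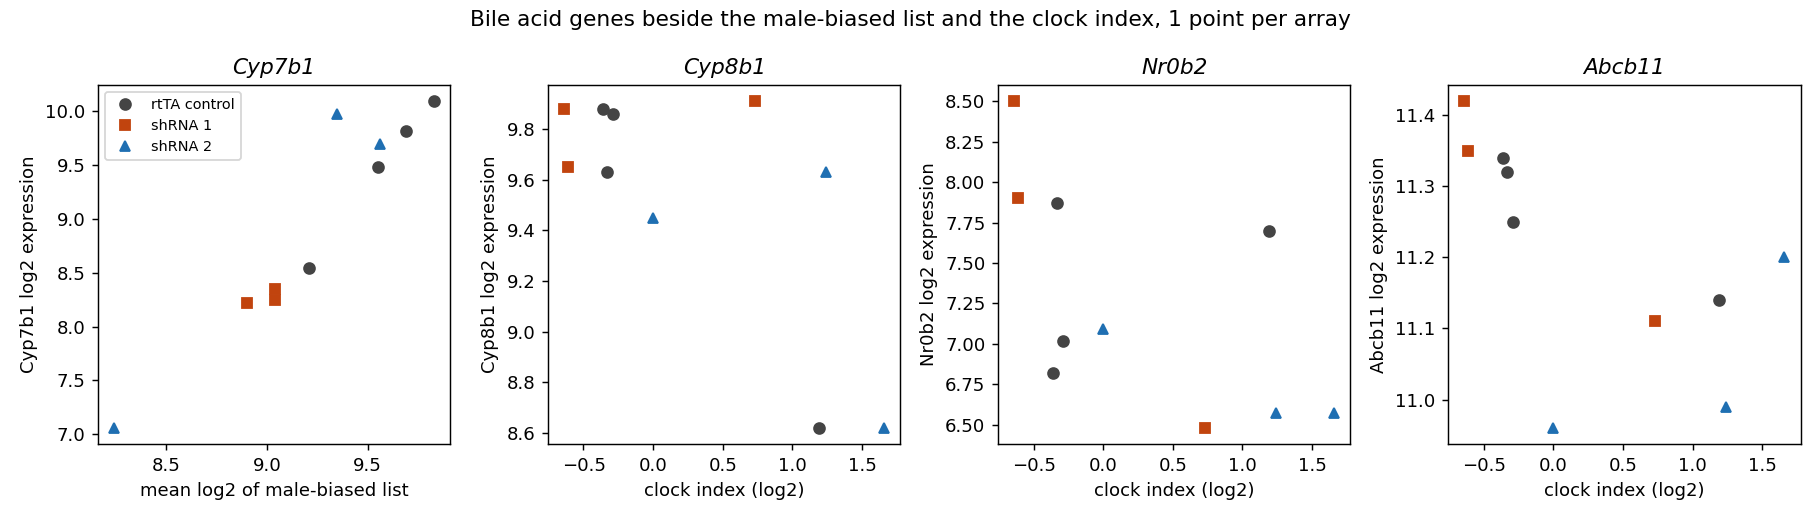
Cyp7b1 against the mean log2 level of 16 male-biased genes, and Cyp8b1, Nr0b2 and Abcb11 against the clock index, with 1 point per array: circles are rtTA controls, squares shRNA 1 and triangles shRNA 2. The 4 arrays with a clock index of 0.73 or more include the lowest Cyp8b1 arrays, at 8.62, and the highest, at 9.91. They also include the lowest Nr0b2 arrays, at 6.48 and 6.57, and control 1, with Nr0b2 at 7.70. Cyp7b1 is lowest, at 7.06, where the male-biased mean is lowest.

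The clock index was high in 1 of 4 controls and 3 of 6 adapted livers. Nr0b2 was at 6.48, 6.57 and 6.57 in the adapted livers with a high index and at 7.70 in the control with one. No relation of the 10 genes with the index passed the adjusted threshold on deviations from the group means, and the part of the clock phase in the differences was not tested beyond the fit with the index as a covariate, in which 0 of the 10 genes passed in any comparison.

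None of the other listed genes of the pathway passed either under the main settings. Of 13 further synthesis enzymes tested, out of 15 listed, 6 were higher and 7 lower in adapted livers and 0 passed the adjusted test (limma). Their median difference was -0.04. Akr1d1, the steroid reductase of the classic route, differed by 0.41 (adjusted p = 0.497), and by 0.57 in shRNA 1 and 0.25 in shRNA 2. Cyp39a1, an oxysterol hydroxylase, differed by 0.23 (adjusted p = 0.637). Slc27a2, a very long chain acyl-CoA synthetase, differed by -0.19 (limma adjusted p = 0.557). All 6 adapted livers were below the controls, the highest at 12.37 beside a lowest control of 12.38. Such groups without overlap occurred in 1.88% of all genes tested. Scp2, the peroxisomal sterol carrier thiolase, differed by -0.21 (limma adjusted p = 0.668).

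Of 15 further transport genes tested, out of 17 listed, 9 were higher and 6 lower, 0 passed the adjusted test (limma), and the median difference was 0.01. At an unadjusted p under 0.05, 5 were higher, beside 4.86% of all genes, and 0 lower. They include Abcc3, the basolateral exporter, by 0.37 (adjusted p = 0.433), and Slc10a2, the apical sodium-dependent carrier, by 0.51 (adjusted p = 0.465). The sterol exporter genes Abcg5 and Abcg8 differed by 0.25 and 0.34 (adjusted p = 0.513 and 0.557). Abcc3 and Slc10a2 had the larger difference in shRNA 1, 0.56 and 0.73 beside 0.18 and 0.29 in shRNA 2, and Abcg5 and Abcg8 in shRNA 2, 0.43 and 0.51 beside 0.06 and 0.16. For Abcg5 the difference between the hairpins was -0.37 (limma adjusted p = 0.687). The genes named were chosen by adapted against control only. The lowest limma adjusted p of the list was 0.221 in shRNA 1 against control and 0.31 between the hairpins, in genes not named here.

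Of 16 further regulators tested, out of 19 listed, 6 were higher and 10 lower, 0 passed the adjusted test (limma), and the median difference was -0.04. Ppargc1a, a coactivator induced in fasting, was at 6.38 to 6.77 in controls and 6.72 to 7.55 in adapted livers, a difference of 0.59 (adjusted p = 0.264; 0.84 and adjusted p = 0.0894 in shRNA 1). In shRNA 1 it passed with an intensity trend and robust prior (adjusted p = 0.033) or without shRNA 2 replicate 3 (adjusted p = 0.0487). Prox1, a corepressor of Cyp7a1, differed by -0.24 (adjusted p = 0.440), and Hnf4a, the hepatocyte factor that drives several of the 10 genes, by -0.18 (adjusted p = 0.583). Klb, the coreceptor for FGF15, differed by 0.25 (adjusted p = 0.620).

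Of 7 detoxification genes tested, out of 9 listed, 3 were higher and 4 lower, 0 passed the adjusted test (limma), and the median difference was -0.01. Papss2, which makes the sulfate donor, had the smallest p among the further bile acid genes. Its level was 9.81 to 9.99 in controls and 10.11 to 10.75 in adapted livers, above the controls in 6 of 6. Groups without overlap occurred in 1.88% of all genes tested. Papss2 differed by 0.59 (limma adjusted p = 0.170), and by 0.73 in shRNA 1 (adjusted p = 0.0687). It passed for adapted livers with an intensity trend and robust prior (adjusted p = 0.0488), and in shRNA 1 with that setting, with array weights, with the filter at the 60th percentile or without shRNA 2 replicate 3 (adjusted p of 0.0201 to 0.0487). Ces1g, a carboxylesterase, differed by 0.46 (adjusted p = 0.312) and by 0.70 in shRNA 1, where it passed with array weights, with the trend and robust prior or without control 4 (adjusted p of 0.0368 to 0.0454). Cyp2b10, a target of the receptor CAR, was at 3.74 to 4.68 in controls, around the filter level of 3.98, so the size of its difference, 0.92 (adjusted p = 0.494), is uncertain. In shRNA 1 livers it was at 5.59, 5.09 and 5.28, above all controls, with a difference of 1.24 (limma adjusted p = 0.407). In shRNA 2 livers it was at 4.05, 4.09 and 5.85, and without the last of these, replicate 3, the shRNA 2 difference from control was -0.01. Sult2a8, a bile acid sulfotransferase, differed by -0.14 (adjusted p = 0.701).

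**Figure D4:**
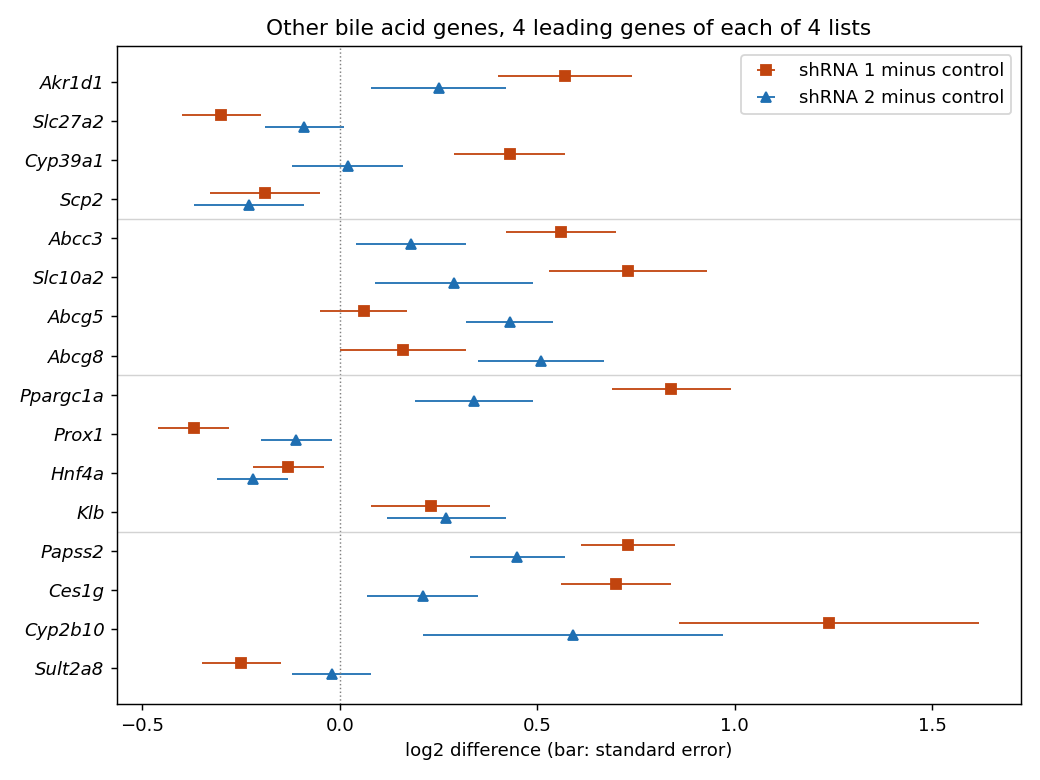
Log2 difference from control of 16 further bile acid genes, 4 from each of the synthesis, transport, regulator and detoxification lists from top to bottom, for shRNA 1 (orange squares) and shRNA 2 (blue triangles), with standard errors. The estimates of Cyp2b10, 1.24 and 0.59, are set against controls near the filter level, and none of the 16 passed the adjusted test under the main settings.

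Each gene's level was set beside 12321 other named genes across the 10 arrays as a description, since the points share arrays and groups. The closest were Mtarc2 (r = 0.91), Galnt10 and Rarg for Cyp7a1, with D2Bwg1423e opposite at -0.92. For Cyp8b1 they were Shroom2 (0.94), Slc4a1 and Fam180a, with Lrrc32 at -0.95. Cyp27a1 was closest to Rc3h1 (0.97), Tmprss2 and Acss2os, and opposite to Ifnar2 (-0.91). Cyp7b1 was closest to Mindy3 (0.94), Orm1 and Cadm4, and opposite to Prelid2 (-0.95). Slc27a5 was closest to Ube2r2 (0.88), Anapc13 and Man2b1, and opposite to Lzts2 (-0.95). For Baat the nearest were Tbl1x (0.97), Triap1 and Zfp946, and Aire lay opposite (-0.91). For Slc10a1 the nearest were Alg6 (0.96), Fcgrt and Tmem230, and Taok3 lay opposite (-0.93). Abcb11 followed Cflar (0.92), Golga4 and Chd9 most closely and ran opposite to Cenpj (-0.96). Nr1h4 followed Sat1 (0.92), Scube1 and Dmkn and ran opposite to Rpa1 (-0.92). Nr0b2 followed Faf1 (0.93), Sgf29 and Zfp945 and ran opposite to Gmnn (-0.88). None of these genes was among the 10, and with 10 arrays and this many genes searched, high values of r occur for any gene.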

How the data were processed

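The values analysed are log2 expression per transcript cluster as the authors deposited them; per the submitters' processing notes the tool was Affymetrix Expression Console. Its version, normalization and build were not given in the sources used here. Values were used unchanged. Of 41345 clusters, 23521 carried 1 gene symbol, and the cluster with the highest mean stood for a gene (22180 genes); the tests kept genes at or above log2 3.98, the 40th percentile of the gene means. Array medians were 4.06 to 4.17, and the number of arrays limits the precision.

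Groups came from the sample titles. One fit over all 10 arrays in limma 3.58.1 (R 4.3.3) gave the 4 comparisons, two-sided, with Benjamini-Hochberg adjustment over 13308 genes and a threshold of 0.05; group was the only term. Exact permutation tests (scipy 1.17.1) were two-sided. Pair correlations used 100000 permutations. Arrays were called separate sets by a gene where the largest gap was at least 30% of its range with at least 3 arrays on each side, a rule set after seeing the data. The gap was 41.6% for Cyp27a1, 31.9% for the clock index, 31.2% for Cyp7b1 and 30.1% for Nr0b2, the last 3 only just past the cut. Tested on simulated data of 13308 genes with 200 shifted, the fit recovered 57.7% of shifts of 0.5 and 94.3% of shifts of 1 for adapted against control. The shifted genes were drawn at random, with independent normal noise of each gene's residual SD, 0.16 in the median gene. These shares therefore do not describe Cyp7b1, Cyp7a1, Nr0b2 and Cyp8b1, with residual SD of 0.97, 0.87, 0.67 and 0.49.

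The genes, the further lists and the tests were chosen with earlier results of these data known. All 10 genes are named; from each further list, up to 4 with the largest moderated statistic for adapted against control; for each of the 10, the 3 genes with the highest and the 1 with the lowest r, passing over predicted and small noncoding genes. Clusters with several symbols or none were not used.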

Additional observations from a re-analysis of the deposited data

Results flagged for a closer look

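Of 38 sets of 4 control values examined for a sample far from the others, 2 held one, and chance alone gives about 1 in 20. Arntl, the core clock gene, was at 6.15 in control 1 and at 7.50 to 7.66 in the other controls. Mup20, a male-biased urinary protein gene, was at 11.9 in control 4 and at 12.33 to 12.37 in the other controls. None of the 10 bile acid genes had such a control. Groups of 3 were not examined in this way.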

How the results depend on the processing

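None of the 10 genes passed the adjusted threshold in any of 4 comparisons under any of 20 alternatives, 800 values in all, with a lowest limma adjusted p of 0.218, for Cyp7b1 in shRNA 1 against control without shRNA 2 replicate 3. The sign changed in 40 of the 800 values, in 14 of the 40 differences. For shRNA 2 against control it did so with the clock index as covariate in Cyp7a1 (-0.20), Cyp8b1 (0.09), Slc27a5 (-0.01), Baat (0.12) and Nr1h4 (0.02), in Slc27a5 with quantile normalization (-0.01) and array weights (-0.00), and in Nr1h4 with array weights (0.01) and the replicate block (0.06). The fits without 1 array gave, for adapted against control, -0.11 to 0.50 in Cyp7a1, -0.27 to 0.18 in Cyp8b1, -0.08 to 0.02 in Slc27a5 and -0.39 to 0.12 in Nr0b2. For shRNA 1 against control they gave -0.04 to 0.57 in Cyp7a1, -0.16 to 0.85 in Nr0b2 and -0.03 to 0.12 in Abcb11. For shRNA 2 they gave -0.28 to 0.76 in Cyp7a1, -0.56 to 0.04 in Cyp8b1, -1.11 to 0.35 in Cyp7b1, -0.08 to 0.13 in Slc27a5, -0.09 to 0.08 in Baat and -0.07 to 0.06 in Nr1h4, and between the hairpin groups -0.56 to 0.48 in Cyp7a1. The same alternatives were applied to 17 further named genes after seeing the data: 9 of 1034 values changed sign, among them Sult2a8 in shRNA 2 with the clock covariate (0.07). The ranges without 1 array that crossed 0 were -0.00 to 0.17 for Abcg5 in shRNA 1, and in shRNA 2 -0.01 to 0.40 for Akr1d1, -0.05 to 0.14 for Cyp39a1, -0.01 to 0.89 for Cyp2b10 and -0.08 to 0.06 for Sult2a8. Of the 1034 values, 10 passed the threshold, all in Papss2, Ces1g and Ppargc1a. Outside the named genes, Cyp2u1 of the male-biased list, named after its values were seen, passed in shRNA 1 without control 4 (-0.65, adjusted p = 0.0407). The count of all genes passing, 1 for adapted against control, was 0 with the filter at the 60th percentile, 0 with only the groups compared, 6 with an intensity trend and robust prior, and 1 to 3 over the fits without 1 array. For shRNA 1 against control, 0 genes passed, but 8 did with quantile normalization, 15 with the 60th percentile, 7 with the mean of a gene's clusters, 19 with array weights, 30 with the trend and robust prior, 3 with the clock index as covariate, and 0 to 11 without 1 array. For shRNA 2 against control, 1 became 0 with the 60th percentile and 1 to 3 without 1 array. Between the hairpin groups, 2 became 1 with quantile normalization, the 60th percentile or the clock covariate, 6 with array weights, 7 with the trend and robust prior, and 1 to 4 without 1 array. The cause of these shifts was not tested. Samples with the same number deviated together at correlations of -0.25 to 0.267, and samples with different numbers at -0.279 to 0.272. The labels do not state pairing. These few correlations cannot exclude it, since deviations within each group sum to 0. With the replicate number as a block, 4 genes passed between the hairpin groups, and Cyp7b1 differed by -1.21 in adapted livers, still not past the threshold.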
